A study of Mus musculus with 9 samples.

Results

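The 46 genes described here encode lysosomal hydrolases, lysosomal membrane proteins and the TFEB family of transcription factors, and were measured by bulk RNA sequencing in CD11b+ cells of mouse liver. They were listed by symbol for what they encode, by a rule that sets no threshold on a measured value. They were matched by gene ID to the tables, where all 46 were found among the 45777 genes listed and passed the filter on low values. This list and the other lists below were chosen with earlier results of these data known, so their shares beside all genes are descriptions. Every mouse received acetaminophen (APAP) by intraperitoneal injection, an overdose that kills hepatocytes and is a standard model of acute liver failure, and livers were taken 48 h after it. The PBS group (3 libraries) received PBS. The HEK-EV group (3 libraries, titled HEKSIRP-EV) received extracellular vesicles shed by cells of the human embryonic kidney line HEK, and the MSC-EV group (3 libraries, titled SIRP-EV) received vesicles from MSC, mesenchymal stem or stromal cells; both kinds were given intravenously 8 h after APAP. The labels call both vesicles SIRP-EV without spelling out SIRP, and give no strain, sex or age, no vesicle dose and no group without APAP. They number the replicates without stating that each is a separate mouse, so p-values here measure only the spread between these libraries.

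Lysosomes are acidic organelles in which proteins, glycans and lipids taken up from outside or delivered by autophagy are digested. In macrophages they take the load of dead cells and debris, which makes them prominent in the injured liver. The hydrolases are synthesised in the endoplasmic reticulum and sorted to the lysosome, most of them by mannose 6-phosphate tags, while membrane proteins form the protective lining and carry digestion products out. Tfeb, Tfe3 and Mitf are basic helix-loop-helix factors of the MiT/TFE family that bind a short palindrome in the promoters of many lysosomal genes, and their activity is set largely by phosphorylation and by movement between cytosol and nucleus, neither of which is seen in transcript levels.

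Levels are given as TPM, the share of all transcripts that comes from a gene after scaling for transcript length, and differences as log2(TPM + 1) from limma with their standard error (SE); folds are on the TPM + 1 scale, which understates the change of low genes. A gene was called where its Benjamini-Hochberg adjusted p over the 13820 genes tested was below 0.05. The sort marker Itgam, which encodes CD11b, stood at 330 ± 44.3 TPM in PBS, 372 ± 54.1 in HEK-EV and 229 ± 29.6 in MSC-EV (SD, n = 3 each). The common leukocyte antigen Ptprc stood at 585 ± 65.9, 614 ± 49.5 and 424 ± 4.85 TPM in the same order. Both transcripts were present in every group, and both had their lowest mean in MSC-EV. The part of this in the differences below was not tested. Pancreatic acinar transcripts, foreign to such a sort, summed over 12 markers to between 11.5 and 14.1 TPM in the PBS libraries, HEK-EV replicate 3 and MSC-EV replicate 2. They summed to 37.1 TPM in HEK-EV replicate 1. The sum reached 143 TPM in replicate 1 of MSC-EV, 1080 in replicate 2 of HEK-EV and 3078 in replicate 3 of MSC-EV; these 3 are called the acinar-side libraries below. As a measure of relative depth, coverage divided by FPKM lay between 5.28 and 6.32 in PBS, 6.25 and 6.47 in HEK-EV and 6.58 and 6.84 in MSC-EV. Every MSC-EV library thus lay above all others, and PBS replicate 1 was lowest at 5.28. The depth in reads is unknown.

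Promoters of these genes were examined for the core of the element that TFEB binds, CACGTG, because it ties the hydrolases and membrane proteins to the factors listed with them. RefSeq promoters (GRCm38.p6) were on hand for 41 of the 46 genes, and Asah1, Ctsb, Ctsh, Galns and Npc1 had no entry in the table used. In the 250 bases before the annotated start, CACGTG (a palindrome, so the same on either strand) was found for 14 of the 41 genes: Ctsf, Ctsl, Lgmn, Ctsd, Ctsa, Gla, Glb1, Gaa, Naglu, Sgsh, Arsa, Lamp1, Mcoln1 and Cln3. That is 14 of 51 promoters (27.5%), beside 6.02% of all 32851 promoters in the table, searched over the same length. The longer GTCACGTG, which contains the core and was searched on both strands, was found in 11 of the 51 promoters (21.6%), beside 1.85% of all promoters. None of the promoters of Tfeb, Tfe3 and Mitf held the core. The 4 below are shown because Ctsd and Gla are the genes with the core that were called in these data, and Lamp1 and Mcoln1 are membrane proteins with clustered copies. Cln3, another membrane protein with 2 copies, is not shown. Each is the stretch around its copies, 5′ to 3′ on the strand of its gene, with CACGTG in capitals.
Ctsd, chr7:142387900-142388077, minus strand, copies beginning 245 and 98 bases before the start: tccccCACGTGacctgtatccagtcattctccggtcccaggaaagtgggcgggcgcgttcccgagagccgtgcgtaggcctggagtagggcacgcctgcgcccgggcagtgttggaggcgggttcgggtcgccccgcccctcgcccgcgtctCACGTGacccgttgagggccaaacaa
Gla, chrX:134601174-134601252, minus strand, copies beginning 227 and 194 bases before the start: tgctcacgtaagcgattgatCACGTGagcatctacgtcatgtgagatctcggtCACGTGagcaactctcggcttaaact
Lamp1, chr8:13159080-13159160, plus strand, 4 copies, the first beginning 61 and the last 15 bases before the start: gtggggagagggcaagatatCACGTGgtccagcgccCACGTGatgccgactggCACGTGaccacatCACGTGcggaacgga
Mcoln1, chr8:3500428-3500499, plus strand, copies beginning 71 and 45 bases before the start: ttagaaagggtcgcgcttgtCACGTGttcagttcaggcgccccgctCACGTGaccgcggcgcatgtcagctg
A match of letters describes the sequence and does not show a bound site. These 4 genes returned different results below: Ctsd and Gla were called, and Lamp1 and Mcoln1 were not.

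Lysosomal transcripts were abundant in these cells. Summed over the 46 genes they took 33417 to 36951 TPM in PBS, 34640 to 36985 in HEK-EV and 39590 to 43972 in MSC-EV, so every MSC-EV library lay above the 6 others. Such a sum weighs abundant genes most. Of the 46, 35 had a positive difference of MSC-EV from PBS and 11 a negative one. The most abundant was Psap, the precursor of the saposins that present sphingolipids to their hydrolases, at 7751 TPM on average over the 9 libraries. It was followed by the cysteine protease Ctss (5101 TPM), the aspartic protease Ctsd (4438 TPM) and the cysteine protease Ctsb (3351 TPM). At the other end stood Ctsf (8.04 TPM) and Ctsk (6.52 TPM), the cathepsin best known from osteoclasts. The order within MSC-EV differed: Ctsd (mean 5980 TPM) stood above Ctss (5250 TPM), and Ctsk (10.5 TPM) above Ctsf (7.05 TPM). The factors Tfe3, Tfeb and Mitf averaged 69.3, 62.6 and 25.9 TPM.

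**Figure D1:**
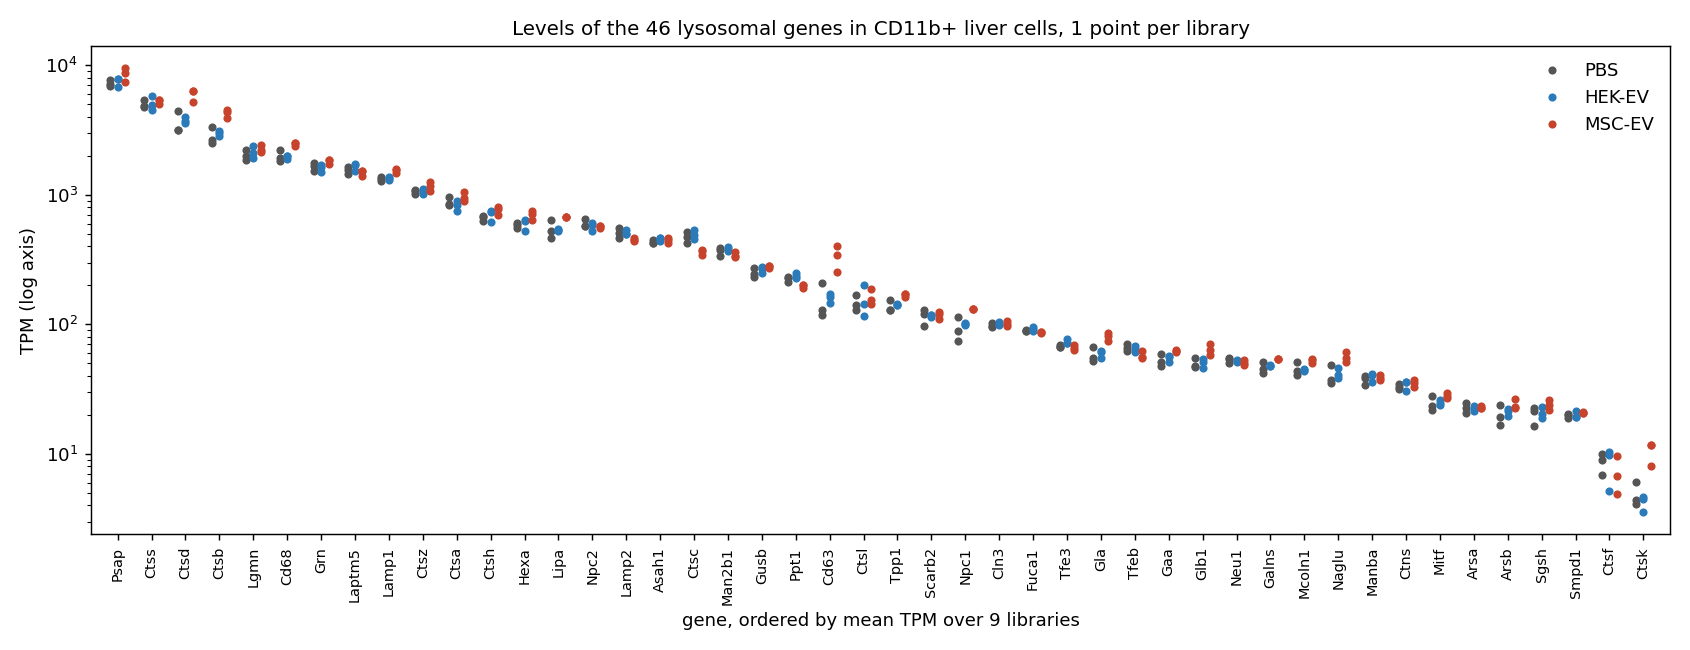
TPM of the 46 genes on a log axis, ordered by their mean over the 9 libraries, with 1 point per library in grey for PBS, blue for HEK-EV and red for MSC-EV. Levels run from Psap (mean 7751 TPM) to Ctsk (6.52 TPM), and the red points of Ctsb, Ctsd, Cd63, Npc1, Gla and Ctsk lie above the grey and blue ones.

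With MSC vesicles, 7 lysosomal genes were higher than with PBS and 1 was lower. Those that rose were the proteases Ctsk, Ctsb, Ctsd and Tpp1, the glycosidase Gla, the cholesterol exporter Npc1 and the tetraspanin Cd63, by 0.29 to 1.16 on the log2 scale; the protease Ctsc fell by 0.37. These 8 of 46 genes (17.4%) stand beside 5.11% of all genes called in the same comparison, with 15.2% against 1.86% for higher calls and 2.17% against 3.25% for lower ones. The median difference over the 46 genes was 0.15, beside 0.01 over all genes tested, and 35 of the 46 (76.1%) had a positive difference, beside 52.3% of all genes. Of the 46, 17 (37%) had all 3 MSC-EV values above all 3 PBS values, beside 11.2% of all genes, and 4 (8.7%) had them all below, beside 14.9%. An unadjusted p under 0.05 was found for 21 of the 46, beside 23% of all genes. In bulk RNA, a change in the proportion of a cell type and a change of RNA per cell cannot be told apart, here and in what follows.

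Compared with HEK-EV, MSC-EV gave 8 called genes as well (17.4%, beside 5.91% of all genes). Ctsk, Ctsd, Cd63, Ctsb, Gla and Cd68 were higher (13%, beside 1.51% of all genes), and Ctsc and Ppt1 were lower (4.35%, beside 4.4%). The median difference over the 46 was 0.12, beside -0.02 over all genes, and 33 of 46 were positive (71.7%, beside 46.2%). Values without overlap were found in 18 genes for higher (39.1%, beside 12.6%) and in 7 for lower (15.2%, beside 17.5%), and an unadjusted p under 0.05 in 21 (beside 23.3%). The comparisons with PBS and with HEK-EV use the same 3 MSC-EV libraries and are set side by side below, not as evidence for each other.

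Which genes were called depended on single libraries and on the filter. Every called gene of the 46 kept its direction in each of the 19 alternative analyses. Leaving out libraries could not have turned it, because the values of each called gene did not overlap between the groups compared. Against PBS, 21 of the 46 were called without PBS replicate 1, 0 without PBS replicate 2, PBS replicate 3, MSC-EV replicate 1 or MSC-EV replicate 2, and 4 to 6 without MSC-EV replicate 3 or any 1 HEK-EV library. The whole table moved with them: 1881 genes were called without PBS replicate 1, and 5, 7, 23 and 54 without those 4 libraries in the order given. Against HEK-EV, 14 were called without PBS replicate 1, 0 without any 1 of the HEK-EV libraries, MSC-EV replicate 1 or MSC-EV replicate 2, and 6 to 9 without 1 of the others. There too the whole table moved, with 1384 genes called without PBS replicate 1, 1, 0 and 31 without HEK-EV replicates 1, 2 and 3, and 0 without MSC-EV replicate 1 or 2. With the 3 acinar-side libraries left out, or with the acinar split as a term, 0 were called in either comparison; the first leaves 1 library in the MSC-EV group, which is assumed to vary like the others. The median over the 46 genes was then 0.15 and 0.14 against PBS, and 0.13 and 0.12 against HEK-EV. With median-of-ratios scaling, 8 genes were called higher and 0 lower against PBS, and 5 and 0 against HEK-EV; with FPKM, 9 and 0, and 8 and 0. Over all genes, 257 higher and 449 lower calls against PBS became 288 and 322 with median-of-ratios scaling and 280 and 197 with FPKM. Against HEK-EV, 209 and 608 became 236 and 273, and 239 and 197, and the share of all genes with a positive difference went from 46.2% to 52% and 59%. With no filter on low values the 8 calls became 0 against PBS and 1 (Ctsk) against HEK-EV, and with only the 6 libraries compared in the fit they became 0 and 13. The lower calls of Ctsc and Ppt1 were lost with median-of-ratios scaling and with FPKM.

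**Figure D2:**
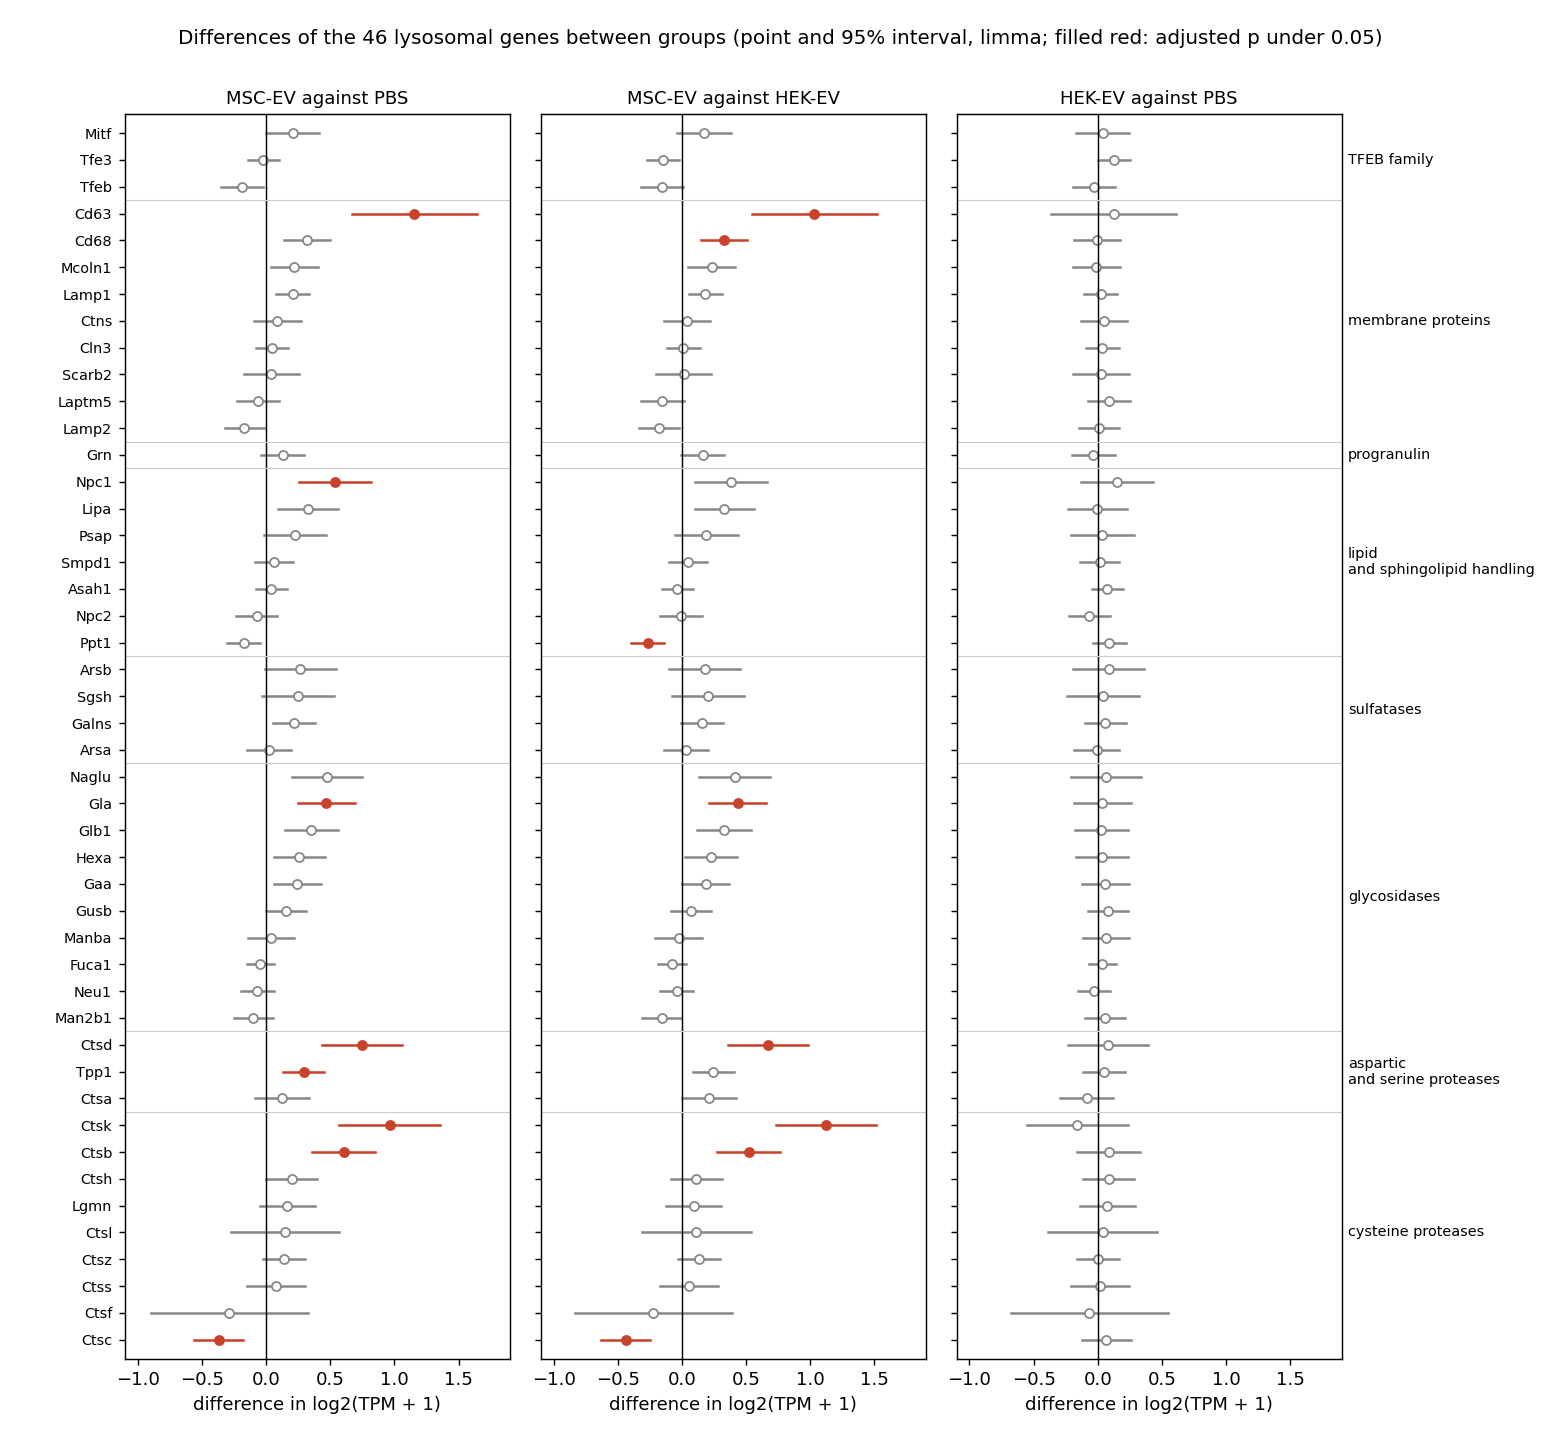
Difference in log2(TPM + 1) of the 46 genes in each comparison, grouped by role, with points for the estimate, lines for its 95% interval and filled red points for an adjusted p under 0.05. In both comparisons with MSC-EV the largest positive differences are those of Cd63 and Ctsk (0.96 to 1.16), and in HEK-EV against PBS no point is filled.

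Among the 9 cysteine proteases, Ctsb and Ctsk were higher with MSC vesicles than in PBS or HEK-EV and Ctsc was lower, while 6 were not called. Of all genes, 1.86% were called higher and 3.25% lower against PBS, and 1.51% and 4.4% against HEK-EV. Ctsb (chromosome 14, 63122462 to 63145923), an abundant endopeptidase and exopeptidase of macrophage lysosomes, stood at 3313, 2650 and 2494 TPM in PBS, 2823, 2997 and 3088 in HEK-EV and 4546, 4344 and 3903 in MSC-EV. All MSC-EV libraries lay above all others, and PBS replicate 1 was the highest PBS library. The difference was 0.60 (SE 0.11, limma adjusted p = 0.0251) from PBS, a 1.52-fold higher level, and 0.52 (SE 0.11, adjusted p = 0.0311) from HEK-EV. Ctsk (chromosome 3, 95499210 to 95509387), a strong collagenase, stood at 6.08, 4.4 and 4.11 TPM in PBS, 3.55, 4.5 and 4.61 in HEK-EV and 11.6, 11.8 and 8 in MSC-EV. Its level was low throughout, and no MSC-EV value overlapped with PBS or HEK-EV. The difference was 0.96 (SE 0.174, adjusted p = 0.0251) from PBS and 1.12 (SE 0.174, adjusted p = 0.0205) from HEK-EV, 2.18-fold.

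Ctsc (chromosome 7, 88278024 to 88315861), a dipeptidyl peptidase that activates the serine proteases of granulocytes, moved the other way. It stood at 424, 517 and 470 TPM in PBS, 532, 456 and 489 in HEK-EV and 377, 343 and 371 in MSC-EV, with every MSC-EV library lowest. The difference was -0.37 (SE 0.0851, adjusted p = 0.043) from PBS and -0.44 (SE 0.0851, adjusted p = 0.0263) from HEK-EV. Ctss, an elastase-like cathepsin that trims the invariant chain for antigen presentation, was the most abundant protease in PBS and HEK-EV by group mean and was not called. Its values were 4747, 5381 and 4814 TPM in PBS, 5774, 4901 and 4542 in HEK-EV and 5408, 5356 and 4987 in MSC-EV, overlapping in all groups (difference from PBS 0.08, SE 0.1, adjusted p = 0.708). Lgmn, the asparaginyl endopeptidase that matures other cathepsins, averaged 2019 ± 175 TPM in PBS, 2130 ± 226 in HEK-EV and 2263 ± 131 in MSC-EV (SD, n = 3 each) and was not called either. The remaining Ctsf, Ctsh, Ctsl and Ctsz differed from PBS by -0.29 to 0.20 and were not called.

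Of the 3 aspartic and serine proteases, Ctsd and Tpp1 were higher with MSC vesicles than with PBS (beside 1.86% of all genes). Ctsa was not called. Ctsd (chromosome 7, 142375910 to 142387827), the main aspartic protease of the lysosome, stood at 4442, 3157 and 3166 TPM in PBS, 3701, 3963 and 3575 in HEK-EV and 6348, 6349 and 5242 in MSC-EV. The MSC-EV libraries were again the highest 3, with PBS replicate 1 nearest to them. The difference was 0.75 (SE 0.139, adjusted p = 0.0256) from PBS, 1.68-fold, and 0.67 (SE 0.139, adjusted p = 0.0297) from HEK-EV. Tpp1 (chromosome 7, 105744811 to 105752282), which removes tripeptides from the ends of proteins, stood at 154, 129 and 130 TPM in PBS, 141, 143 and 142 in HEK-EV and 171, 172 and 162 in MSC-EV. No MSC-EV value overlapped with PBS or HEK-EV, but the step was small. The difference was 0.29 (SE 0.0716, adjusted p = 0.0493) from PBS, called, and 0.25 (SE 0.0716, adjusted p = 0.0761) from HEK-EV, not called. Ctsa, the protective protein of the galactosidase and neuraminidase complex, averaged 881 ± 67, 831 ± 76 and 962 ± 87.1 TPM in PBS, HEK-EV and MSC-EV (SD, n = 3 each); it overlaps Pltp on the genome, which averaged 167 TPM over the 9 libraries.

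**Figure D3:**
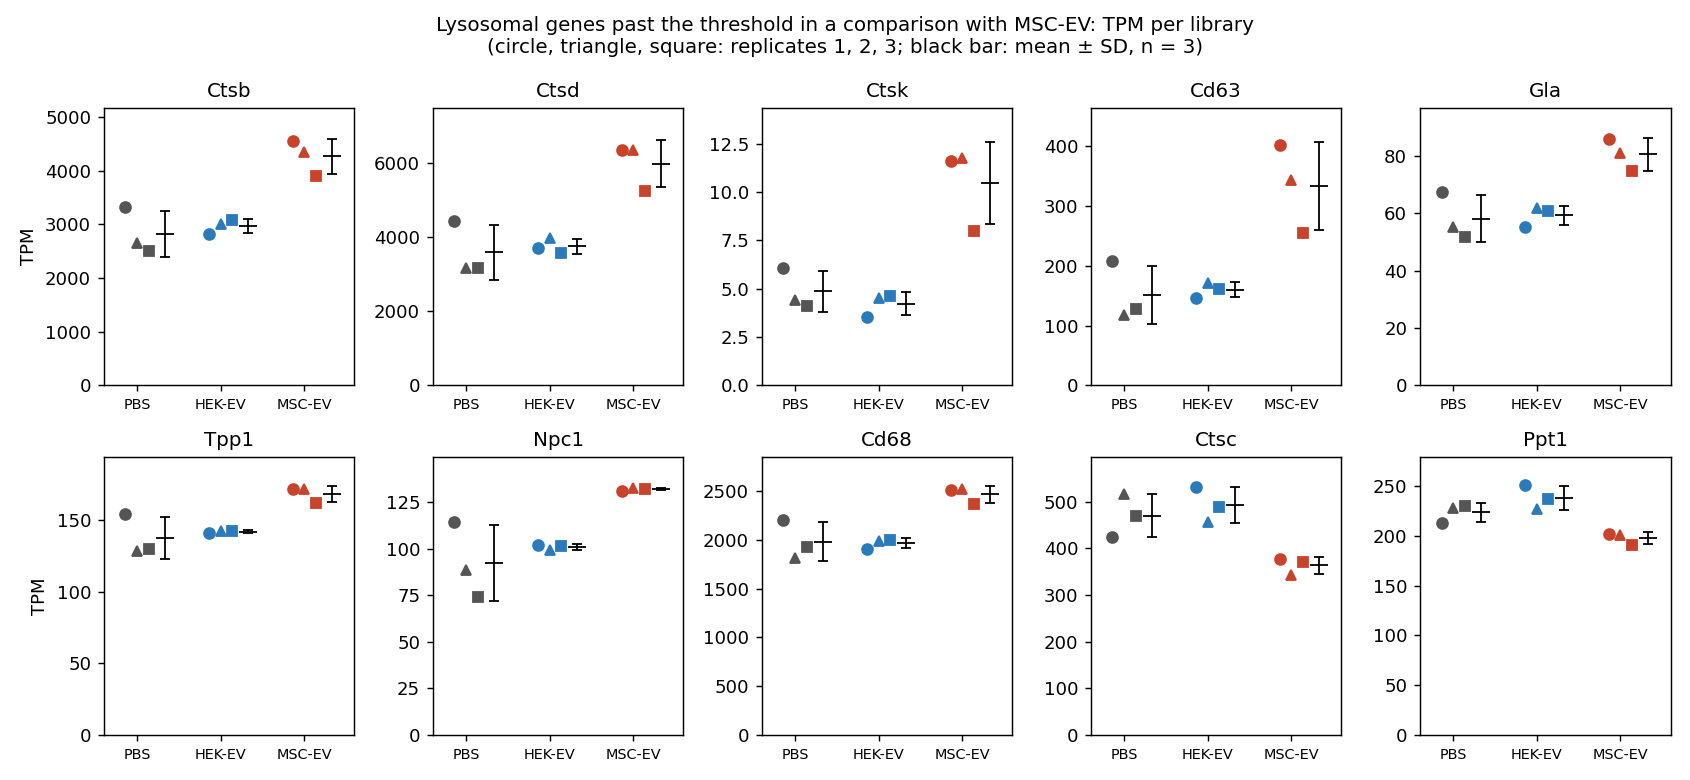
TPM of the 10 genes called in either comparison with MSC-EV, with 1 symbol per library (circle, triangle and square for replicates 1, 2 and 3) and a black bar for the mean ± SD of 3 libraries. The 3 MSC-EV libraries lie above all others for 8 genes and below all others for Ctsc and Ppt1, and PBS replicate 1 (grey circle) is the highest PBS library for each of the 7 genes called higher against PBS.

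The 10 glycosidases, which take sugars off glycoproteins, glycolipids and glycosaminoglycans, held 1 called gene, Gla. It was higher in both comparisons with MSC-EV, where 1.86% (PBS) and 1.51% (HEK-EV) of all genes were called higher. Gla (chromosome X, 134588169 to 134601005), the alpha-galactosidase deficient in Fabry disease, stood at 67.3, 55.4 and 51.8 TPM in PBS, 55.4, 61.8 and 60.7 in HEK-EV and 86, 81.2 and 74.6 in MSC-EV. Every MSC-EV value exceeded every other value. The difference was 0.47 (SE 0.0985, adjusted p = 0.0328) from PBS and 0.44 (SE 0.0985, adjusted p = 0.0366) from HEK-EV, 1.39-fold and 1.35-fold. Naglu, which acts in heparan sulfate breakdown, differed from PBS by 0.48 (adjusted p = 0.0553), and Glb1, the lysosomal beta-galactosidase, by 0.35 (adjusted p = 0.059); neither was called. Hexa and Gaa also had all MSC-EV values above PBS and were not called. Gusb and Manba differed from PBS by 0.15 and 0.04, whereas Man2b1, Neu1 and Fuca1 had negative differences of -0.10 to -0.04. The 4 sulfatases Galns, Sgsh, Arsa and Arsb, which desulfate glycosaminoglycans and sulfatides, differed from PBS by 0.02 to 0.27 and from HEK-EV by 0.03 to 0.20, with 0 called. Galns overlaps Trappc2l (79.8 TPM) and Sgsh overlaps Slc26a11 (20.1 TPM), so their values are uncertain.

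Of the 7 genes of lysosomal lipid handling, 1 was higher with MSC vesicles than with PBS, beside 1.86% of all genes. Another 1 was lower than with HEK vesicles, beside 4.4% of all genes. Npc1 (chromosome 18, 12189694 to 12236506), the membrane transporter that moves cholesterol out of the lysosome, stood at 114, 88.3 and 74.1 TPM in PBS, 102, 99.2 and 101 in HEK-EV and 131, 132 and 132 in MSC-EV. The MSC-EV values were the highest and nearly equal, and those of PBS were the most spread. The difference from PBS was called (0.53, SE 0.125, adjusted p = 0.0441) and that from HEK-EV was not (0.38, SE 0.125, adjusted p = 0.101). Npc2, its soluble partner, averaged 600 ± 44.8, 573 ± 41.4 and 570 ± 11.3 TPM in PBS, HEK-EV and MSC-EV (SD, n = 3 each) and was not called. Lipa, the acid lipase that frees cholesterol from its esters, averaged 542 ± 93.5, 535 ± 8.66 and 673 ± 5.37 TPM; its difference from PBS of 0.33 (adjusted p = 0.0929) missed the threshold, although no MSC-EV value overlapped. Npc1 overlaps Rmc1 on the opposite strand (45.9 TPM), and whether counting used the strand is not given in the sources used here.

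Ppt1 (chromosome 4, 122836077 to 122859175), which takes fatty acids off proteins, stood at 212, 228 and 230 TPM in PBS, 251, 226 and 237 in HEK-EV and 202, 200 and 191 in MSC-EV. All MSC-EV values lay below the others; the difference was called from HEK-EV (-0.26, SE 0.0574, adjusted p = 0.0327) and not from PBS (-0.17, SE 0.0574, adjusted p = 0.107). Ppt1 overlaps the more abundant Cap1 on the opposite strand (737 TPM), so its value is uncertain. Psap stood at 6959, 7658 and 7176 TPM in PBS, 7823, 7803 and 6748 in HEK-EV and 8677, 9500 and 7417 in MSC-EV. MSC-EV replicate 3 fell within the range of PBS and HEK-EV, and the difference from PBS was not called (0.23, SE 0.109, adjusted p = 0.254). Asah1, the acid ceramidase, which shares its strand with the overlapping Frg1 (105 TPM), stood at 427, 448 and 422 TPM in PBS, 464, 464 and 439 in HEK-EV and 450, 424 and 462 in MSC-EV. Its groups overlapped throughout, and neither it nor Smpd1, the acid sphingomyelinase (19.8 ± 0.725, 20 ± 1.3 and 20.7 ± 0.153 TPM; SD, n = 3 each), was called. Grn, the secreted and lysosomal progranulin, averaged 1651 ± 119, 1611 ± 92.5 and 1804 ± 76.9 TPM in PBS, HEK-EV and MSC-EV and was not called.

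Of the 9 membrane proteins, 1 was called against PBS and 2 against HEK-EV, all higher, beside 1.86% and 1.51% of all genes. Cd63 (chromosome 10, 128896231 to 128912822), a tetraspanin of late endosomes that is also a common surface marker of exosomes, stood at 208, 118 and 128 TPM in PBS, 147, 172 and 162 in HEK-EV and 402, 343 and 255 in MSC-EV. All MSC-EV values lay above those of PBS and HEK-EV, and its difference from PBS was the largest of the 46 genes. That difference was 1.16 (SE 0.216, adjusted p = 0.026), 2.23-fold, and the one from HEK-EV was 1.03 (SE 0.216, adjusted p = 0.03). Cd68 (chromosome 11, 69664213 to 69666170), the macrophage sialomucin macrosialin, stood at 2204, 1809 and 1928 TPM in PBS, 1906, 1989 and 2000 in HEK-EV and 2507, 2522 and 2366 in MSC-EV. It was called against HEK-EV (0.33, SE 0.0789, adjusted p = 0.0443) and just missed the threshold against PBS (0.32, SE 0.0789, adjusted p = 0.0513).

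The chief glycoproteins of the lysosomal lining, Lamp1 and Lamp2, were not called and had differences of opposite sign. Lamp1 averaged 1328 ± 45.1 TPM in PBS, 1350 ± 35.6 in HEK-EV and 1534 ± 60.4 in MSC-EV (SD, n = 3 each), 0.21 above PBS (adjusted p = 0.0708). Lamp2 averaged 507 ± 43.7, 510 ± 19.7 and 450 ± 11.5 TPM, a difference of -0.17 (adjusted p = 0.175). Mcoln1, the calcium channel whose opening activates TFEB, averaged 45 ± 5.31, 44.4 ± 0.71 and 52.4 ± 2.11 TPM and was 0.22 above PBS (adjusted p = 0.138). Laptm5, Scarb2 (the carrier of beta-glucocerebrosidase), Cln3 and the cystine exporter Ctns differed from PBS by -0.06 to 0.09, with 0 called; Cln3 overlaps the more abundant Apobr (137 TPM), so its value is uncertain.

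None of the transcripts of the TFEB family was called in any comparison. Tfeb stood at 61.8, 65.2 and 69.9 TPM in PBS, 67.9, 64.2 and 60.9 in HEK-EV and 55.5, 62.5 and 55 in MSC-EV; its difference from PBS was negative (-0.18, SE 0.0731, adjusted p = 0.167, 95% interval -0.35 to -0.02). Tfe3 stood at 66.3, 69.8 and 66.4 TPM in PBS, 76.4, 72.4 and 72.4 in HEK-EV and 66.2, 63.8 and 69.6 in MSC-EV, a difference of -0.02 from PBS (SE 0.0546, adjusted p = 0.863, interval -0.14 to 0.10). Mitf stood at 28.1, 23.4 and 21.8 TPM in PBS, 26.3, 24 and 24.7 in HEK-EV and 28.1, 29.7 and 27 in MSC-EV, a difference of 0.21 (SE 0.0927, adjusted p = 0.218, interval -0.00 to 0.42). For each factor the PBS and MSC-EV values overlapped. All MSC-EV values lay below HEK-EV for Tfe3 (-0.15, limma adjusted p = 0.144), beside 17.5% of all genes. They lay above HEK-EV for Mitf (0.17, adjusted p = 0.308), beside 12.6% of all genes, and overlapped for Tfeb (-0.16, adjusted p = 0.236). Mitf was called against PBS without PBS replicate 1 and with depth as a covariate, where adjusted p reached 0.0286; over the 19 alternatives it ran up to 0.545.

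**Figure D4:**
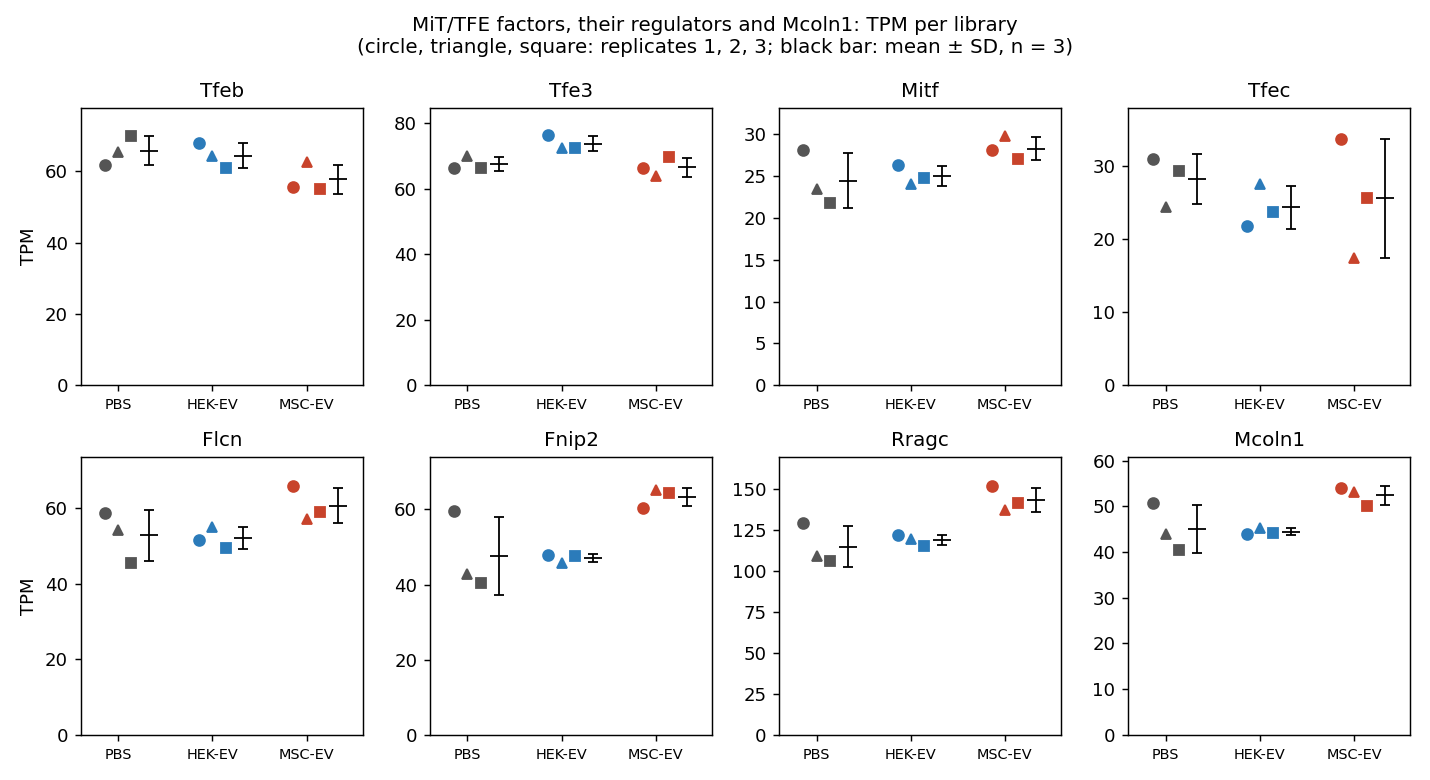
TPM per library of Tfeb, Tfe3 and Mitf, of Tfec (the other family gene), of Flcn, Fnip2 and Rragc, which regulate TFEB, and of Mcoln1, with circles, triangles and squares for replicates 1, 2 and 3 and a black bar for the mean ± SD of 3 libraries. Of the 8, Rragc alone was called, against PBS, with means of 115, 119 and 144 TPM in PBS, HEK-EV and MSC-EV.

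Called genes were found both with and without the promoter core. Of the 14 genes with CACGTG, 2 were called higher against PBS (Ctsd and Gla) and 0 lower, with a median difference of 0.21; over the 46 genes 15.2% were called higher and 2.17% lower, and over all genes 1.86% and 3.25%. Of the 27 genes whose promoters were read and lacked it, 3 were called higher (Cd63, Ctsk and Tpp1) and 1 lower (Ctsc), with a median of 0.08. Against HEK-EV the counts were 2 higher and 0 lower of 14 (median 0.20), and 3 higher and 2 lower of 27 (median 0.05), beside 1.51% higher and 4.4% lower of all genes. Ctsb and Npc1 were called and are among the 5 genes without an entry. In HEK-EV against PBS the medians were 0.04 and 0.04. These splits are descriptions and were not tested.

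HEK vesicles against PBS gave 0 called genes, lysosomal or other, with limma; this was the only tool run, and 495 genes (3.58%) had an unadjusted p under 0.05. Among the 46, Tfe3 alone did, and it was also the only one whose values did not overlap (higher in HEK-EV; 5.51% of all genes were so higher and 2.29% lower). The 3 lysosomal genes of smallest p were Tfe3 (0.13, SE 0.0546), Ppt1 (0.09, SE 0.0574) and Asah1 (0.08, SE 0.0544), each with an adjusted p of 0.999. The median difference over the 46 genes was 0.04, beside 0.03 over all genes, and 35 of 46 (76.1%) were positive, beside 61% of all genes. Without PBS replicate 3, 21 of 46 were positive (49.2% of all genes) and the median was -0.0012; with median-of-ratios scaling 28 were positive (49% of all genes). For the genes called with MSC vesicles the intervals of this comparison were -0.36 to 0.61 for Cd63, -0.55 to 0.23 for Ctsk, -0.16 to 0.33 for Ctsb and -0.23 to 0.39 for Ctsd. Each of these intervals ends below the difference of the same gene between MSC-EV and PBS, and each includes smaller changes in either direction.

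Other lysosomal genes were listed by role. Among 30 further hydrolases and cofactors, 1 was called higher against PBS and 2 lower, counts near the 1.86% and 3.25% of all genes. The higher one was Dpp7, a dipeptidyl peptidase, at 76.7, 60.3 and 54.2 TPM in PBS, 64, 63.5 and 59.3 in HEK-EV and 98.9, 93.3 and 83.4 in MSC-EV (0.53, SE 0.117, adjusted p = 0.0377). The lower ones were Naaa, which hydrolyses fatty acid ethanolamides (-0.58, adjusted p = 0.0313), and Hgsnat, of heparan sulfate breakdown (-0.45, adjusted p = 0.043). Against HEK-EV, where 1.51% of all genes were called higher and 4.4% lower, Dpp7 was called at 0.55, Naaa at -0.57 and Hgsnat at -0.43. The list median was 0.07 against PBS and 0.00 against HEK-EV.

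Of 22 further membrane proteins and transporters, 21 passed the filter and 0 were called against PBS (beside 1.86% of all genes higher and 3.25% lower). Against HEK-EV, 2 were lower, beside 4.4% of all genes: Slc11a1, the metal ion transporter of phagosomes (-0.30, adjusted p = 0.0267), and Tmem63a (-0.36, adjusted p = 0.0364). Of 7 cathepsin inhibitors tested, 0 were called against PBS and 1, Stfa2, was lower against HEK-EV (beside 4.4% of all genes). Stfa2 stood at 1.67 ± 0.391 TPM in HEK-EV and 0.374 ± 0.113 in MSC-EV (SD, n = 3 each). None of the 9 genes of mannose 6-phosphate tagging and other sorting was called. Of 16 tested genes that regulate TFEB through mTORC1 and folliculin, 1 was called, higher against PBS (beside 1.86% of all genes). This was Rragc, a Rag GTPase, at 129, 109 and 107 TPM in PBS, 122, 120 and 116 in HEK-EV and 152, 137 and 142 in MSC-EV (0.32, SE 0.0773, adjusted p = 0.0479). Of 17 autophagy genes, 0 were called against PBS and 1, Atg9a, was lower against HEK-EV (-0.40, adjusted p = 0.03), beside 4.4% of all genes. In HEK-EV against PBS each of these lists had 0 called.

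**Figure D5:**
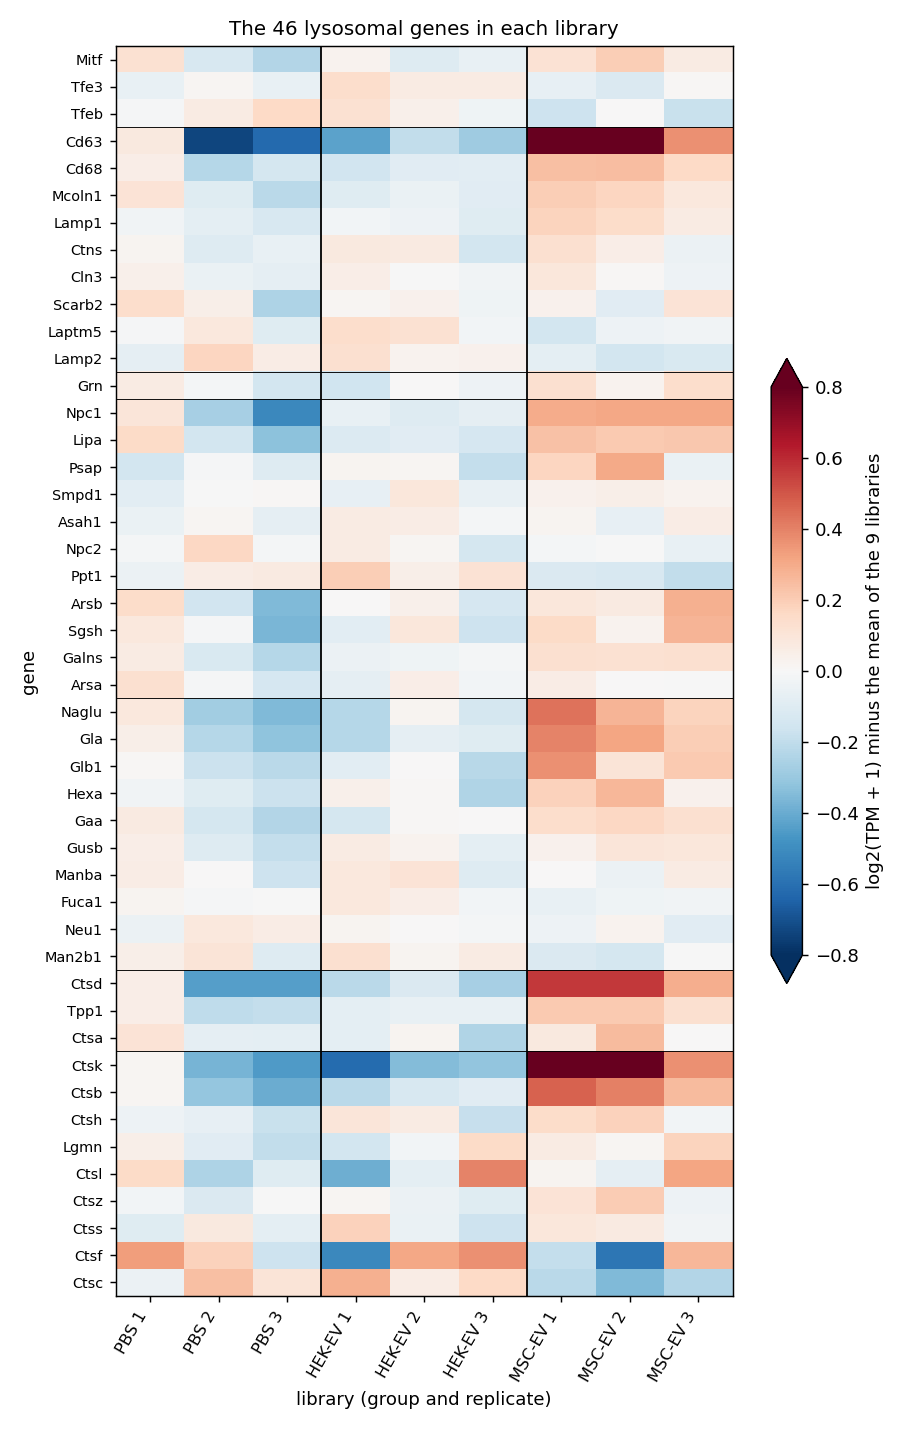
Each of the 46 genes in each library as log2(TPM + 1) minus its mean over the 9 libraries, with red above and blue below the mean, the scale ending at 0.8 in either direction, and genes grouped by role. The MSC-EV columns are reddest for Cd63, Ctsk, Ctsd and Ctsb, and the column of PBS replicate 1 is paler or redder than those of the other PBS libraries for these genes.

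Some lists of myeloid cell markers held called genes too. Of 8 markers of lipid-associated macrophages, 5 were higher in MSC-EV than in PBS (Apoe, Fabp5, Gpnmb, Trem2 and Lpl) and 0 lower, beside 1.86% and 3.25% of all genes. Against HEK-EV, 4 were higher and 0 lower, beside 1.51% and 4.4%, and all 8 were higher without overlap, beside 12.6%. The list summed to 8252 to 9211 TPM in PBS, 9781 to 11084 in HEK-EV and 17738 to 20011 in MSC-EV. Of 10 monocyte markers, 5 were lower than in PBS (Vcan, Chil3, Ly6c2, Ms4a4c and Plac8) and 0 higher, beside 3.25% and 1.86% of all genes. They summed to 6703 to 12956, 8393 to 10490 and 4149 to 5156 TPM in the same order of groups. Compared with HEK-EV, 4 were lower (Vcan, Fn1, F13a1 and Chil3), beside 4.4% of all genes. Of 10 Kupffer cell markers 0 were called against PBS or HEK-EV. All 10 differences from PBS were negative (median -0.55), whereas 52.3% of all genes had a positive one. Without overlap, 3 of the 10 were lower than PBS (beside 14.9% of all genes) and 0 lower than HEK-EV (beside 17.5%). Their sums were 3137 to 3840, 2277 to 4286 and 1939 to 3134 TPM. PBS replicate 1, the highest PBS library for all 7 genes called higher against PBS and for 32 of the 46 genes, was also the highest for 6 of the 8 lipid-associated macrophage markers and the lowest for 9 of the 10 monocyte markers. The part of these markers' cells in the lysosomal differences was not tested.

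Other cell types were followed by their own markers. Hepatocyte markers summed to 246 to 319 TPM in PBS, 196 to 332 in HEK-EV and 399 to 543 in MSC-EV. Against PBS, 2 of 9 tested were called higher (beside 1.86% of all genes) and 8 of 9 were higher without overlap (beside 11.2%). Biliary markers summed to 8.81 to 11.4, 11.6 to 14.1 and 17.4 to 25.9 TPM, with Cftr under 1 TPM in every library. Of 6 tested, 4 were called higher against PBS, beside 1.86% of all genes. Endothelial markers summed to 300 to 370, 202 to 434 and 126 to 247 TPM, with 0 of 8 called; all 8 differences from PBS were negative (median -0.83), 6 without overlap (beside 14.9% of all genes). Of 10 tested neutrophil markers 1, Ltf, was higher against PBS (beside 1.86% of all genes). Against HEK-EV Ltf was higher (beside 1.51%) and Csf3r lower (beside 4.4%). Of the 10, 6 had all MSC-EV values below HEK-EV (beside 17.5% of all genes), and the median difference from HEK-EV was -0.48. Neutrophil markers gave sums of 3021 to 5581, 5000 to 6873 and 2947 to 3755 TPM, with Elane and Mpo under 1 TPM in every library. Dendritic cell markers had 0 of 8 called (195 to 250, 212 to 251 and 240 to 297 TPM), and stellate cell markers 0 of 5 tested (7.66 to 17.6, 9.22 to 14.4 and 11 to 29.5 TPM, with Lrat, Des and Pdgfrb under 1 TPM in every library). Lymphocyte markers summed to 6.98 to 15.7 TPM over all libraries, with 1 of 3 tested, Nkg7, called higher against PBS (beside 1.86% of all genes). Cd3e, Cd3d and Klrb1c were under 1 TPM in every library. The part of these cells in the lysosomal differences was not tested.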

How the data were processed

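Bulk RNA sequencing libraries of CD11b+ liver cells (9, in 3 groups of 3) were prepared, per the labels' protocols, from Trizol-extracted, DNase-treated RNA with a TruSeq Stranded mRNA kit. HISAT2 2.1.0, StringTie and mm10 are named in the submitters' processing notes. TPM, FPKM and coverage (signal) per gene were deposited by the authors, 1 table per library, per the file headers; no read counts were used, so depth is known only as the ratio of coverage to FPKM. Gene IDs were matched to RefSeq symbols of GRCm38.p6 (45679 of 45777). Positions in the files equalled that assembly's for 96.4% of genes, and 20 of the 46 genes overlap another annotated gene. No 2 libraries were identical.

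TPM were used as log2(TPM + 1) for the 13820 genes that reached 1 TPM in 3 or more of the 9 libraries. Differences were tested by limma (version 3.58.1, R 4.3.3: lmFit, then contrasts.fit, then eBayes with a mean-variance trend; all 9 libraries in 1 fit, no covariate, two-sided, Benjamini-Hochberg over all genes, threshold 0.05). An exact permutation test of 3 against 3 cannot go below 0.1 and was not run for single genes. Tables, promoter searches and figures used Python 3.11.15 with pandas 2.3.3, numpy 2.4.6 and matplotlib 3.10.9. The 46 genes, the other gene lists and the marker lists were chosen with earlier results of these data known, so no test was made over a list. Values in every library are given for genes called in any comparison, the 3 of smallest p where none was called, the 3 of highest mean TPM, and the TFEB family; of other lists, genes called against PBS are named (biliary and hepatocyte ones by count), and so are those called against HEK-EV, except that of the marker lists only the monocyte and neutrophil ones are. The alternatives tried were FPKM, median-of-ratios scaling, a 0.1 pseudocount, a 5 TPM minimum, no filter, only the 6 libraries compared, a replicate block, depth or an acinar split (12 markers summing to over 10 times the PBS median) as a term, and leaving out each library. Leaving out the 3 acinar-side libraries together was added after seeing the data.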

Additional observations from a re-analysis of the deposited data

How the results depend on the processing

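Of the 46 genes, those called in a comparison kept their direction in all 19 alternatives: against PBS, Ctsk ran from 0.85 to 1.24 (adjusted p 0.00535 to 0.274), Ctsb from 0.52 to 0.88, Ctsd from 0.67 to 1.077, Cd63 from 1.002 to 1.67, Gla from 0.39 to 0.71, Npc1 from 0.39 to 0.93, Tpp1 from 0.25 to 0.47 and Ctsc from -0.46 to -0.30. In the fits that left libraries out the sign could not turn, because the values of these genes did not overlap between the groups compared. Their calls were not stable, and the cause was not tested.

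Against PBS, the 706 called genes became 361 with no filter, 404 with the replicate block, 1457 with depth as a covariate, 5 with the acinar term, 167 with only the 6 libraries compared and 0 without the acinar-side libraries; the 8 lysosomal ones became 0, 4, 16, 0, 0 and 0. Without 1 library, 5 to 1881 genes and 0 to 21 of the 46 were called. The median over the 46 became 0.26 with depth, where that over all genes became 0.09. Because the depth ratio was higher in every MSC-EV library than in all others, this fit cannot separate depth from group in either comparison with MSC-EV.

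Against HEK-EV, the 817 called genes became 387 with no filter, 436 with FPKM, 509 with median-of-ratios scaling, 448 with the replicate block, 1511 with depth, and 0 with the acinar term and without the acinar-side libraries. The 8 lysosomal ones became 1 with no filter, 5 with median-of-ratios scaling, 3 with the block, 16 with depth, 13 with only the 6 libraries compared (where 1120 genes were called in all), and 0 with the acinar term and without the acinar-side libraries. Without 1 library, 0 to 1384 genes and 0 to 14 of the 46 were called, and the median became 0.19 with FPKM (0.04 over all genes).

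In HEK-EV against PBS, 4 genes were called with no filter and 0 to 2 without 1 library, with 0 of the 46 throughout, and the median became 0.10 with depth (0.08 over all genes) and ran from -0.0012 to 0.079 without 1 library.

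Among the 16 genes given in every library, signs turned only for uncalled differences; the other 30 were not followed by gene. Against PBS, Tfe3 was 0.022 with FPKM and -0.053 to 0.0083 without 1 library, and Asah1 was -0.0067 with the acinar term and -0.029 without the acinar-side libraries. Against HEK-EV, Asah1 was 0.033 with FPKM and -0.061 to 0.0014 without 1 library, and Ctss was -0.020 to 0.15 without 1 library. In HEK-EV against PBS, Ctsk was 0.0040, Cd68 0.081 and Psap -0.017 with depth, Ctss was -0.0017 with FPKM and -0.012 with median-of-ratios scaling, and Tfeb was 0.0014 with the acinar term. Without 1 library these ran from -0.070 to 0.073 for Cd68, -0.000376 to 0.11 for Psap, -0.076 to 0.097 for Ctss and -0.070 to 0.017 for Tfeb, and others from -0.0028 to 0.24 for Ctsd, -0.029 to 0.37 for Cd63, -0.043 to 0.14 for Gla, -0.0041 to 0.14 for Ctsc and -0.038 to 0.14 for Mitf.

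The labels do not state that a shared replicate number pairs libraries. The deviations of 9 same-numbered pairs correlated between -0.50 and 0.06, and those of 18 differently numbered pairs between -0.28 and 0.55. These correlations cannot show whether libraries were paired. With the block, Ctsd, Cd63, Ctsb and Ctsk stayed called against PBS, and Ctsk, Ctsd and Cd63 against HEK-EV. Depth in reads is unknown, so counting error cannot be given.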
